A study of Mus musculus with 4 samples.

Results

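Forkhead genes encode transcription factors that share a winged-helix DNA-binding domain and carry the symbol Fox with a letter for the subfamily and a number. In this series 44 genes met the definition, protein-coding GENCODE M21 genes named Fox, a letter from a to s and a number, out of 21951 protein-coding genes. Their gene bodies with 20 kb on either side (here the windows) held 191 of the 44692 regions formed by merging overlapping peaks of the libraries. Open chromatin was profiled with ATAC-seq, which uses the Tn5 transposase to insert adapters where DNA is exposed, in cells of posterior forelimb buds at E10.5 (35 somites) on a Swiss Webster background. There were 2 wild-type (WT) libraries and 2 from Shh-/- embryos (rep1 and rep2 of each), and the mutants lack Sonic hedgehog, the ligand of the Hedgehog (HH) pathway in the limb. Each library came from the paired buds of 1 embryo, with 5000 cells in the reaction and 18 PCR cycles, and the null allele is carried in the germline and not restricted to a cell type. The comparison asks whether accessibility at these genes differed when HH signalling was absent.

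Several subfamilies are known from limb development. Foxc1, Foxc2 and Foxd1 are mesenchymal factors, and Foxp1 and Foxp2 are repressors expressed in limb mesenchyme and other tissues. Foxf1 and Foxf2 are HH-responsive genes of gut and facial mesenchyme, induced there by ligand from the neighbouring epithelium through the GLI factors. Other members belong to other tissues, such as Foxa genes in endoderm, Foxn1 in thymic epithelium, Foxp3 in regulatory T cells and Foxj1 in multiciliated cells, and 11 members (among them Foxo3, Foxk1 and Foxn2) are expressed in most cells.

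The deposited data were 1 peak list per library, with a score for each peak and no read counts, so the reads behind each library are not in the files used here, and an absent peak means only that none was called. The lists held 39080 peaks in WT rep1, 11973 in WT rep2, 5589 in Shh-/- rep1 and 18459 in Shh-/- rep2. Values are therefore given as calls and as the rank of a peak within its own list, with its percentile (0 is the best scoring peak, 100 the last). Scores were often tied: a member's best promoter peak was 1 of 21 to 5482 peaks with the same score in WT rep1, 117 to 1407 in WT rep2, 79 to 526 in Shh-/- rep1 and 11 to 1570 in Shh-/- rep2, and tied peaks were ordered by position. List size and quality cannot be told apart from genotype when single libraries are compared. As a check of tissue, promoters of the limb mesenchyme markers Prrx1, Tbx5, Hand2, Msx1, Twist1 and Lmx1b had a peak for 6 of 6 genes in WT rep1, 2 of 6 in WT rep2, 2 of 6 in Shh-/- rep1 and 4 of 6 in Shh-/- rep2. In the same order of libraries, promoters had a peak for 2, 0, 0 and 1 of 2 hindlimb genes. The counts were 1, 0, 0 and 0 of 4 genes for ectoderm and ridge and 1, 0, 0 and 1 of 3 for endothelium. They were 1, 1, 0 and 1 of 3 for blood and 2, 1, 0 and 2 of 3 for muscle progenitors. The lists are short, and some shares equal those of limb mesenchyme in the same library, so these calls do not separate limb mesenchyme from the other tissues. The targeted gene Shh had no promoter peak in any library, and its window held 3, 0, 0 and 2 peaks in the order WT rep1, WT rep2, Shh-/- rep1, Shh-/- rep2 (the order of every such run of 4 values below), so the lists give no check of the deletion.

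The sequences that carry the main patterns are shown first, each from mm10 on the plus strand around the summit of the region's best ranked peak. A CpG is printed in capitals in the first group, the 5 promoter regions on which the results turn.
Foxo3, upstream of the gene, called in all 4 libraries (chr10:42277820-42278019): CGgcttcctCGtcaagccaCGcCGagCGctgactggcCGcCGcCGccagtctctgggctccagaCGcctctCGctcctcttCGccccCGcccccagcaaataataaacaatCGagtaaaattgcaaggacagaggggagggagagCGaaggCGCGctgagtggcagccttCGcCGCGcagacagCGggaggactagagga
Foxp2, upstream of the gene, called in all 4 libraries (chr6:14900607-14900806): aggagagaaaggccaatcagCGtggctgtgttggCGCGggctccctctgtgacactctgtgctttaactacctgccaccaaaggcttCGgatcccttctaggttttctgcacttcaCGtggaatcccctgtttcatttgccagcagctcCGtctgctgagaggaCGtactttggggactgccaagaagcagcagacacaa
Foxc1, ending at the base before the first start site, called in WT rep1 and Shh-/- rep2 (chr13:31806472-31806632): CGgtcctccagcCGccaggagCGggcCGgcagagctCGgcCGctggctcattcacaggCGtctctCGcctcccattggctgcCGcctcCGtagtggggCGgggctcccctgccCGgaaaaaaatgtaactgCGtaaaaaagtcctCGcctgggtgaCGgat
Foxf1, coding part of the first exon, called in both WT libraries and Shh-/- rep2 (chr8:121084545-121084744): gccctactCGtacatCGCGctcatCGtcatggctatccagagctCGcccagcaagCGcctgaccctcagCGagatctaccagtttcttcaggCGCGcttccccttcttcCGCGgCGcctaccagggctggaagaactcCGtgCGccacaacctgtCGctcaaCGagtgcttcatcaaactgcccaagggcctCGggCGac
Foxf2, coding part of the first exon, called in both WT libraries and lying outside the peak of Shh-/- rep2 (chr13:31626262-31626461): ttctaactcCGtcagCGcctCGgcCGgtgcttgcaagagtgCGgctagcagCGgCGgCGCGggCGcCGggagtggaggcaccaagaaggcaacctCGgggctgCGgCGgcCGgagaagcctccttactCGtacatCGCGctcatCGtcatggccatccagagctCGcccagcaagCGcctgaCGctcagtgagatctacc

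The Foxf1 and Foxf2 sequences lie inside coding sequence, all 200 bases of each, and they overlap in 80 aligned bases without a gap, of which 75 (93.8%) are identical. The Foxo3 sequence has a GC content of 64.5% with 20 CpG, and the Foxp2 sequence 54.5% with 7. The Foxc1 stretch of 161 bases holds 15 CpG at 65.8% GC. Foxf1 has 18 CpG in its 200 bases and Foxf2 has 22.

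The second group holds regions away from the member's promoter, with CpG in capitals for the first 3, the GLI match in the fourth and the forkhead match in the fifth.
Foxp1, intron, called in all 4 libraries (chr6:99067969-99068168): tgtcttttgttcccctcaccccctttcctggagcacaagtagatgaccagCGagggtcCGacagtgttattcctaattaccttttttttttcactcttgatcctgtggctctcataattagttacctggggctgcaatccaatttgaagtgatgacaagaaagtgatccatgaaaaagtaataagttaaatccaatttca
Foxp1, intron, called in both Shh-/- libraries and no WT library (chr6:99189983-99190182): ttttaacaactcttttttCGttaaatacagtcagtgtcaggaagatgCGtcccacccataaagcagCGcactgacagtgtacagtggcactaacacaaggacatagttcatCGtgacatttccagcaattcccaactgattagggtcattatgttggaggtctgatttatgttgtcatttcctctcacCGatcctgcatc
Foxa1, downstream of the gene, called in both WT libraries and no Shh-/- library (chr12:57538750-57538949): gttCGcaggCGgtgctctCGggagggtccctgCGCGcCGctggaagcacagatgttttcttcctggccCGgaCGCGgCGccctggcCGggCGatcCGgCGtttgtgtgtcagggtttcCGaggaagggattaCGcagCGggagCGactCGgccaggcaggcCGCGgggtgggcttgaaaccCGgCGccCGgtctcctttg
Foxp2, upstream of the promoter, called in WT rep1 and Shh-/- rep2 (chr6:14898265-14898464): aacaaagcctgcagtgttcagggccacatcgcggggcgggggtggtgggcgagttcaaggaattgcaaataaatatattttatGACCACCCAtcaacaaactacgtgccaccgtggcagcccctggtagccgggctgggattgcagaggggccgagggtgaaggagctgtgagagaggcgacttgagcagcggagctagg
Foxk1, intron, called in all 4 libraries (chr5:142440456-142440655): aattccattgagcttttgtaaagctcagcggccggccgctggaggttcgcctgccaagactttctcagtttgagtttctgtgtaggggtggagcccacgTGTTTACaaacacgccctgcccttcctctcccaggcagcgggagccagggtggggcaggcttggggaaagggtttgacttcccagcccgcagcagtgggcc

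The GLI motif searched was TGGGTGGTC and the forkhead motif TGTTTAC, on both strands, in 200 bases around each summit. Neither motif contains the other. An exact GLI motif stood in 2 of the 191 member regions (1.05%) and in 0.309% of all regions, and with up to 1 mismatch in 11 (5.76%) against 5.62%. The 2 exact matches were the Foxp2 region printed above, on the minus strand, and a region beside Foxb2, a neural gene, at chr19:16876305-16876786, which was called in WT rep1 alone. The forkhead motif stood in 4 member regions (2.09%) against 1.76% of all regions. These 4 were the Foxk1 region printed above and regions in the windows of Foxp4, Foxs1 and Foxl1 that were each called in 1 library.

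Most Forkhead genes had a peak in their window in the long lists, and about as many as other genes in the shortest. A peak lay in the window of 41 members in WT rep1 (93.2%, 95% Wilson interval 81.8 to 97.7), 29 in WT rep2 (65.9%, 51.1 to 78.1), 14 in Shh-/- rep1 (31.8%, interval up to 46.6) and 34 in Shh-/- rep2 (77.3%, 63.0 to 87.2). Over all protein-coding genes the shares were 74.6%, 57.2%, 32.4% and 67.0% in the same order. The background of WT rep1 lay below the members' interval and the other 3 lay within theirs. The intervals cover counting error only, and in dissected tissue fewer cells with an open site cannot be told apart from less opening per cell. Shh-/- rep2 exceeded WT rep2, and the ranges of the genotypes overlapped. The mean was 35 ± 8.49 members in WT and 24 ± 14.1 in Shh-/- (SD, n = 2 libraries each, exact permutation test, two-sided, p = 0.667), where the smallest p this design allows is 0.333. At equal list size (each list limited to its best 5589 peaks, the length of the shortest) the counts were 16, 16, 14 and 17, and the difference of the means was 0.5. The share of all genes at that size was counted for promoters only, so these window counts have no background to be read against. Windows of 12 members held a peak in all 4 libraries, and the windows of Foxb1, a gene of the developing brain and spinal cord, and of Foxi2 held none in any. The shares of all genes with these patterns were not counted.

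**Figure D1:**
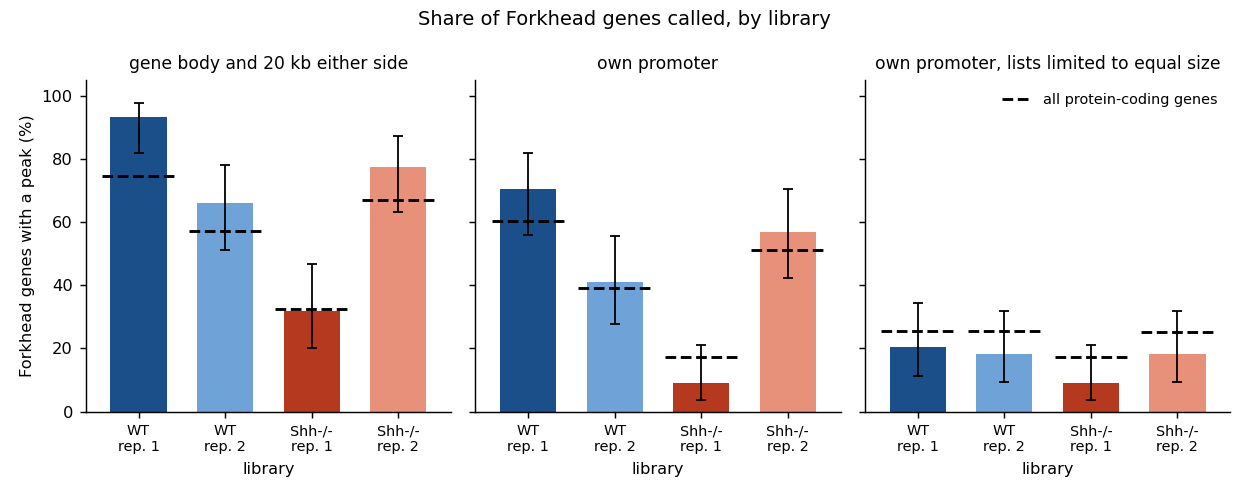
Share of the 44 Forkhead genes with a peak (bars, percent, with 95% Wilson intervals) in each library, for the window of the gene body and 20 kb either side, for the gene's own promoter, and for the promoter with each list limited to its best 5589 peaks. Dashed lines give the share of all 21951 protein-coding genes. WT rep1 stands above its dashed line in the first panel, at 93.2% against 74.6%, and Shh-/- rep1 below it in the other panels, at 9.09% against 17.2%.

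At the members' own promoters (from 2 kb before to 1 kb after a start site) the order of the libraries was the same. A promoter peak was called for 31 members in WT rep1 (70.5%, 55.8 to 81.8), 18 in WT rep2 (40.9%, 27.7 to 55.6), 4 in Shh-/- rep1 (9.09%, 3.59 to 21.2) and 25 in Shh-/- rep2 (56.8%, 42.2 to 70.3). The shares of all protein-coding genes were 60.4%, 39.2%, 17.2% and 51.2%, each inside the interval of the members. The means were 24.5 ± 9.19 in WT and 14.5 ± 14.8 in Shh-/- (SD, n = 2 each, exact permutation p = 0.667). Without Shh-/- rep1 the difference of the means turned, to 0.5 members fewer in WT than in Shh-/- rep2. With every list limited to its best 5589 peaks the counts drew together, to 9, 8, 4 and 8 members (20.5%, 18.2%, 9.09% and 18.2%), against 25.5%, 25.4%, 17.2% and 25.1% of all genes. Member promoters thus fell below the background in all 4 libraries at equal list size, and the background lay inside the interval in each. The limit fell among peaks of equal score, 218 in WT rep1, 879 in WT rep2 and 347 in Shh-/- rep2, kept or dropped by position. Of member promoters at that score, Foxc1 was kept in WT rep1. Foxo1 and Foxi3 were dropped in WT rep2, and Foxa3 in Shh-/- rep2. The median percentile of the members' best promoter peaks was 27.0 in WT rep1, 51.4 in WT rep2, 63.2 in Shh-/- rep1 and 41.0 in Shh-/- rep2, where over all genes with a promoter peak it was 17.6, 34.7, 38.4 and 31.1.

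Promoters of the 11 broadly expressed members had a peak for 11 of 11 in WT rep1, 8 in WT rep2, 3 in Shh-/- rep1 and 11 in Shh-/- rep2. Foxo3, a transcription factor of the insulin and stress pathways, had the best ranked promoter of the family in all 4 libraries, with ranks of 816 in WT rep1, 1164 in WT rep2, 892 in Shh-/- rep1 and 307 in Shh-/- rep2 (percentiles 2.09, 9.72, 16.0 and 1.66). Its summits lay within a narrow stretch upstream of the first start site, at −1177, −1142, −1145 and −1165 bp, which is the sequence printed above. The width of that peak was 3691 bp in WT rep1 and 3356 bp in Shh-/- rep2, but 967 bp in WT rep2 and 875 bp in Shh-/- rep1.

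Foxn2, Foxp4 and Foxp2 were the other members with a promoter peak in every library. Foxn2, a little studied factor of many tissues, had best ranks of 1376, 6917, 2872 and 2347. Its promoter window held a pair of regions. The one across the start site (chr17:88440018-88441258, 75.0% GC around the summit) was called in both WT libraries and Shh-/- rep2 and missing from the list of Shh-/- rep1, while the one just after it, reaching into the first intron (chr17:88441565-88442097, 46% GC) was called in all 4. The rank of 2872 in Shh-/- rep1 belongs to the latter, whose ranks in WT were 8201 and 8069. Foxp4, a relative of Foxp1 that is found in most embryonic tissues, had ranks of 3927, 8048, 4192 and 3899. Foxo6, a FoxO gene best known from brain, is not in the broad list, and its promoter ranked 2110 in WT rep1, 1812 in WT rep2 and 1043 in Shh-/- rep2, with no peak in Shh-/- rep1.

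**Figure D2:**
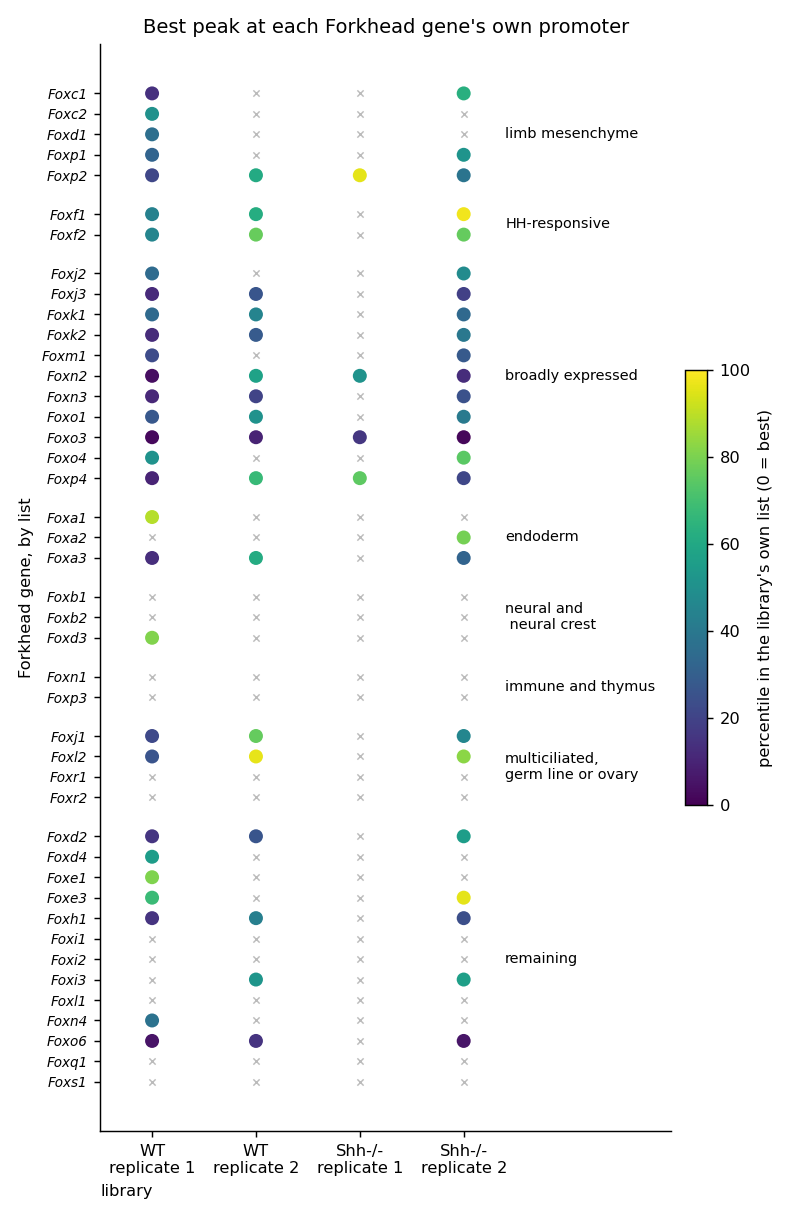
Best peak at the own promoter of 43 Forkhead genes (rows, grouped by list) in the 4 libraries (columns). Circles are coloured by the percentile of the peak in its own list, from 0 (best) to 100, and grey crosses mark promoters with no peak called. In the column of Shh-/- rep1 the 4 circles are Foxp2, Foxn2, Foxo3 and Foxp4, and the 11 broadly expressed rows are filled in WT rep1 and Shh-/- rep2.

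Of the limb mesenchyme members, Foxc1 had the best promoter ranks in WT rep1. Foxc1 (chr13:31806633-31812476, plus strand) acts in mesenchyme of the head and trunk, and its promoter ranked 5417 in WT rep1 and 11644 in Shh-/- rep2 (percentiles 13.9 and 63.1). No peak was called in its window in WT rep2 or Shh-/- rep1. The summits lay 61 and 42 bp before the start site, and a second region at the end of the gene, 4871 and 4711 bp after the start, was called in those libraries too. The other 4 regions of this window were in the list of WT rep1 alone.

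Foxd1 (chr13:98354242-98359305, plus strand), best known from kidney stroma, had peaks in WT rep1 alone, its promoter at rank 14096 (percentile 36.1) and a region 11.8 kb after the start site at rank 11907. The promoter of Foxc2 (chr8:121116171-121118895, plus strand), which acts in lymphatic vessels and mesenchyme, also had a peak in WT rep1 alone, at rank 19556. Neither gene was called at its promoter in a Shh-/- library, nor in the other WT library.

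Foxp2 (chr6:14901349-15441977, plus strand) was the limb mesenchyme member with a promoter peak in every library, at ranks of 8356, 7282, 5368 and 7132 (percentiles 21.4, 60.8, 96.0 and 38.6). It stood near the end of the list of Shh-/- rep1, the shortest list. About 3 kb upstream of the start site, the region with the GLI match (chr6:14898050-14898596) was called in WT rep1 at rank 14817 and in Shh-/- rep2 at rank 13437, with summits 2984 and 3253 bp before the start. An intronic region 422 kb after the start was called in the same libraries.

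Foxp1 (chr6:98925338-99522721, minus strand), at 597 kb the longest gene of the family, had 6, 3, 3 and 6 peaks in its window. Its promoters were called in WT rep1, best at rank 12412, and in Shh-/- rep2, best at rank 9574, but these were different start sites: the summit of the WT peak lay 28 bp before the 5′ end of the gene, and the Shh-/- peak lay at an internal start, 492 kb after the first start site of the basic gene set. The promoter at the 5′ end was also called in Shh-/- rep2, at rank 12233. A deep intronic region (chr6:99067640-99068417, 453 kb after that start site) was called in all 4 libraries, at ranks of 10688, 11272, 2088 and 5157 (percentiles 27.3, 94.1, 37.4 and 27.9), and its sequence is of 40.5% GC with 2 CpG. Another intronic region (chr6:99189802-99190207) was called in both Shh-/- libraries, at ranks 3413 and 10340 (percentiles 61.1 and 56.0), and in neither WT library.

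Limb mesenchyme members were called more often than members of other tissues in 3 of the 4 libraries and less often in WT rep2. Promoters of the 5 limb mesenchyme members were called for 5, 1, 1 and 3 in that order of libraries, and those of the 37 members of other tissues for 24, 15, 3 and 20. The difference of the shares, limb mesenchyme minus other tissues, was 35.1 percentage points in WT rep1, −20.5 in WT rep2, 11.9 in Shh-/- rep1 and 5.95 in Shh-/- rep2, a mean of 8.11 with an SD over libraries of 22.9. At equal list size the mean difference was −8.24, and without WT rep1 it was −0.901. With the broadly expressed members left out, 13, 7, 0 and 9 of 26 promoters of other tissues were called, and the mean difference was 22.1 points (this comparison was added after the data were seen). A count of 5 genes limits each of these values, and genes are not replicates, so no test was made.

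Of the members of other tissues outside the broad list, the endoderm factors Foxa1, Foxa2 and Foxa3, the 4 neural and neural crest genes (among them Foxb1, Foxb2 and Foxd3), and the genes of multiciliated cells, germ line or ovary Foxj1, Foxl2, Foxr1 and Foxr2 were partly called. The endoderm promoters had a peak for 2, 1, 0 and 2 of 3 genes, the neural ones for 2, 0, 0 and 0 of 4, and the third list for 2, 2, 0 and 2 of 4. The peaks counted for Foxa3, the only endoderm promoter called in WT rep2, also lie at the promoter of its neighbour Sympk. The immune and thymus genes Foxn1 and Foxp3 had no promoter peak in any library. A region in the Foxp3 window called in all 4 libraries is the promoter of its neighbours Flicr and Ppp1r3f, and a region in all 4 lists in each of the Foxh1, Foxj2 and Foxa3 windows is likewise at promoters of neighbours (Cyhr1 and Kifc2, Gm5112, Irf2bp1 and Mypopos).

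The HH-responsive genes Foxf1 and Foxf2 showed the same pattern of calls, with a promoter peak in both WT libraries and in Shh-/- rep2 and no peak in the window in Shh-/- rep1. Promoters of 13 of the 44 members, these 2 among them, had peaks in the same 3 libraries. The promoter peaks of Foxf1 also lie at the promoter of Gm27530, and those of Foxf2 at the promoters of 1700018A04Rik and Gm27516. Without peaks at promoters of other genes, the windows of Foxf1 and Foxf2 together held 7, 0, 0 and 1 peaks. Foxf1 (chr8:121084386-121088144, plus strand), needed for mesenchyme of gut and lung, had 10 peaks in its window in WT rep1, 2 in WT rep2, 0 in Shh-/- rep1 and 3 in Shh-/- rep2. The shared promoter region, the coding sequence printed above (chr8:121084328-121084911), ranked 19555 of 39080 in WT rep1, 7420 of 11973 in WT rep2 and 18033 of 18459 in Shh-/- rep2, where its percentile was 97.7. It therefore stood near the end of the Shh-/- list and nearer the middle of the WT lists. A second promoter peak, 810 bp before the start site, was called in WT rep1 alone at rank 16980.

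Foxf2 (chr13:31625816-31631403, plus strand), which acts in palate and gut mesenchyme, had 2, 1, 0 and 1 peaks in its window. Its promoter ranked 17769 in WT rep1, 9197 in WT rep2 and 14077 in Shh-/- rep2 (percentiles 45.5, 76.8 and 76.3). The summits did not coincide, at 546 and 731 bp after the start site in WT and 1094 bp after it in Shh-/- rep2, where the peak (chr13:31626506-31626933) overlaps the WT peaks only at its left end and lies past the sequence printed above. The summit in Shh-/- rep2 is outside the promoter window, which ends 1 kb after the start site. The Foxf2 promoter call in that library therefore rests on overlap and is lost when calls are made by summit. Over both genes the windows held 7.5 ± 6.36 peaks in WT and 2 ± 2.83 in Shh-/- (SD, n = 2 each, exact permutation p = 0.667). At equal list size the windows held 0, 1, 0 and 1 peaks, and the difference of the means was 0, from 5.5 with all peaks. The peaks left were at the promoter of the neighbour Mthfsd, and none at the promoter of Foxf1 or Foxf2 was within the limit. With all peaks the difference was 1 without WT rep1.

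**Figure D3:**
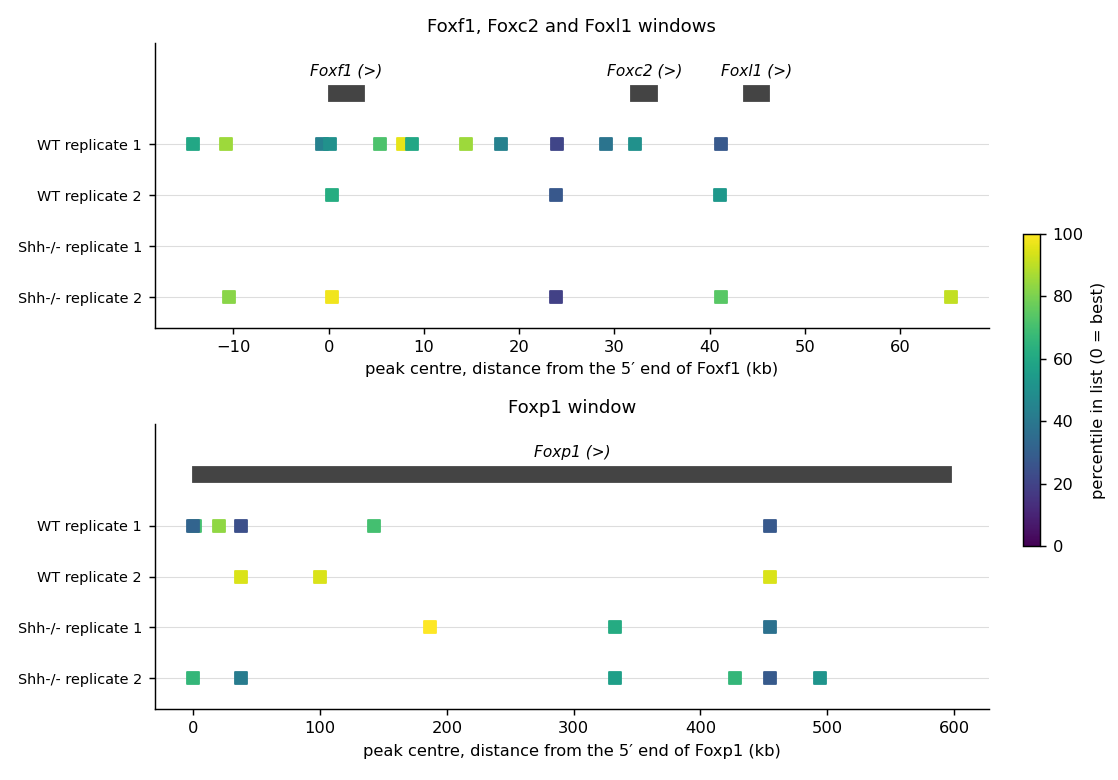
Peaks (squares, coloured by percentile in their own list) in the windows of Foxf1, Foxc2 and Foxl1, which lie next to each other, and of Foxp1, by library (rows). The horizontal axis is the distance of the peak centre from the 5′ end of Foxf1 or Foxp1 in kb, and dark bars are the genes with their direction. At the Foxf1 promoter, at the Mthfsd promoter between Foxf1 and Foxc2, and just before Foxl1, WT rep1, WT rep2 and Shh-/- rep2 have squares and Shh-/- rep1 has none, and in the lower panel all 4 rows have a square at the intronic region of the text.

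Foxf1, Foxc2 and Foxl1, a gene of gut mesenchyme that is also known as an HH target, stand in a row on chromosome 8, so that they share peaks. The promoter of Mthfsd, a neighbour of another family (chr8:121107869-121108753), falls in all 3 windows and ranked 7949 in WT rep1, 3265 in WT rep2 and 3561 in Shh-/- rep2. A region 2305 to 2443 bp before Foxl1 (chr8:121125321-121125793), annotated as an intron of Gm20388, ranked 10791, 6383 and 13661 in these libraries. Shh-/- rep1 had no peak in any of the 3 windows. A region with summits 10814 and 10465 bp before Foxf1, in an intron of Fendrr, a long noncoding RNA gene that is divergent to Foxf1, was called in WT rep1 and Shh-/- rep2.

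Among the HH pathway genes, Gli1, a transcriptional target of the pathway, had promoter peaks in both WT libraries (percentiles 15.1 and 47.4) and in neither Shh-/- library. Over the 8 genes of that list (among them Gli1, Gli2 and Gli3) the promoters were called for 8, 7, 4 and 6. Other genes of the list had other patterns of calls. Ptch1, the receptor of the ligand, had a promoter peak in all 4 libraries (percentiles 2.79, 65.4, 98.5 and 14.8), and Hhip, which binds the ligand, in WT rep1 and Shh-/- rep2 (percentiles 59.2 and 44.9). Smo had promoter peaks in both WT libraries and in Shh-/- rep2 (percentiles 8.36, 71.3 and 51.8), the pattern of calls of Foxf1 and Foxf2. Hhip differed from these in having no promoter peak in WT rep2. In Shh-/- rep2, 6 of the 8 promoters were called.

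Few regions in the member windows followed genotype in all 4 libraries. In both WT lists and neither Shh-/- list stood 6 of the 191 regions (3.14%), against 2.09% of all regions, and 2 (1.05%) had the reverse pattern, against 0.396%. Neither share was tested against its background. Not one of these 8 overlapped a member's own promoter. Of the 6 WT-specific regions, 5 lay in the windows of Foxj1, Foxa1, Foxh1, Foxp4 and Foxl2, and no limb mesenchyme or HH-responsive member held any of the 6. The region at Foxl2, an ovary gene, had the best ranks, 12577 and 3280 (percentiles 32.2 and 27.4), and lies at the promoter of the antisense gene Foxl2os. The Foxh1 region is in an exon of Kifc2, at ranks 15801 and 5848.

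Beside Foxa1, a pioneer factor of endoderm, the WT-specific region (chr12:57538790-57539319) ranked 29414 and 7768 and lay 7077 and 7271 bp after the first start site of the basic set. The Foxj1 region is intronic, at ranks 29255 and 10487. The Foxp4 region joins a peak ending at 47908581 in WT rep1 (rank 35461) to one starting at 47908580 in WT rep2 (rank 8047), so the peaks share only their edges. The Shh-specific regions were the Foxp1 intron above and one 16716 and 16769 bp before Foxe3, a lens gene, at ranks 4859 and 9473. GC content around the summit was 51.0 to 69.5% in the 6 WT-specific regions and 44.0% (Foxe3) and 43.0% (Foxp1) in the Shh-specific ones. At equal list size 3 WT-specific regions and 1 Shh-specific region were left.

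Regions present in both WT lists were recovered unequally by the Shh-/- libraries. Of 39 such regions in the member windows, 10 were called in Shh-/- rep1 (25.6%, 14.6 to 41.1) and 33 in Shh-/- rep2 (84.6%, 70.3 to 92.8), where the shares over all regions were 37.7% and 89.8%. Both of these background shares lie inside the members' intervals. Of the 13 member regions in both Shh-/- lists, 11 were called in WT rep1 (84.6%, 57.8 to 95.7) and 10 in WT rep2 (76.9%, 49.7 to 91.8), against 96.2% and 75.0% over all regions. The median GC content was 56.8% in the 10 regions recovered by Shh-/- rep1 and 65.5% in the 29 that were not, against 62% and 67.0% over all regions. In Shh-/- rep2 the order was the other way, at 64.5% in the 33 recovered regions and 59.5% in the 6 others, against 65.5% and 58.0% over all regions. The part of base composition in the calls was not tested.

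Member promoters that were called in more libraries held more CpG. In the 300 bases from 250 before to 50 after the first start site of the basic set, the median number of CpG was 8 in the 11 members with no promoter peak, 14 in the 9 called in 1 library, 26 in the 7 called in 2, 31 in the 13 called in 3 and 32.5 in the 4 called in all. The median GC content was 56.0%, 57.3%, 68.0%, 69.0% and 72.2% in the same order. Over all 44 members the medians were 18.5 CpG and 61.8% GC, and over all protein-coding genes on the chromosomes read 12 CpG and 55.7%. Both HH-responsive members had GC-rich promoters (median 75.2%, 32 CpG), as did the broadly expressed members (72.3%, 33 CpG), while the limb mesenchyme members had a median of 57.3% and 14 CpG. This is a description across genes, which are not independent. The same split was not made over all genes, so it cannot be told whether the pattern is particular to Forkhead genes. The bases were read at the first start site, while a call could lie at any start site of the gene.

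**Figure D4:**
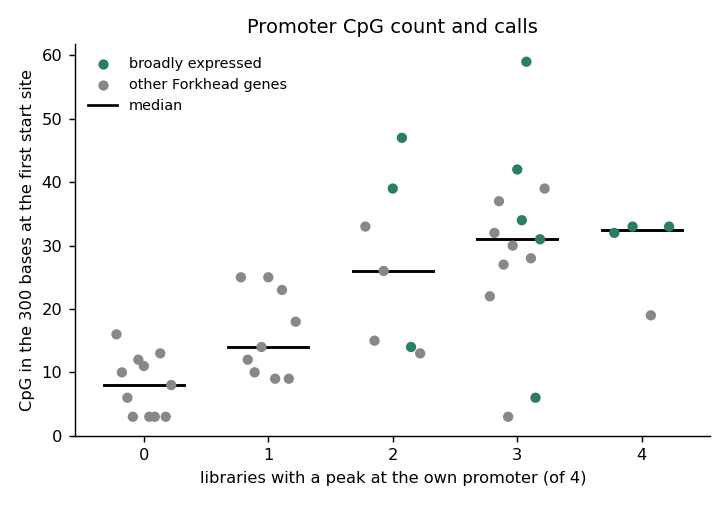
Number of CpG in the 300 bases at the first start site of each Forkhead gene (points), by the number of libraries in which its own promoter had a peak, with the median of each column as a bar. Green points are the broadly expressed members and grey points the others. The medians go from 8 with no library to 32.5 with all 4, and points of neighbouring columns overlap.

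The windows were also denser in peaks than those of other genes. Members had 41.6, 13.2, 4.06 and 18.0 peaks per Mb of window in the 4 libraries, against 24.0, 7.80, 3.37 and 11.4 in the windows of all protein-coding genes. The median length of the genes was 5.72 kb, against 17.4 kb over all protein-coding genes. In number the windows held 164, 52, 16 and 71 peaks, a mean of 108 ± 79.2 in WT and 43.5 ± 38.9 in Shh-/- (SD, n = 2 each, exact permutation p = 0.667). At equal list size they held 19, 16, 16 and 16 peaks, a difference of the means of 1.5, and with a score of at least 50 the difference was 15.5. Of the 191 regions, 103 were in the list of WT rep1 alone (53.9%, against 51.6% of all regions) and 10 in all 4 lists (5.24%, against 7.97%). Foxp4 and Foxo6 had the most peaks in 1 library, 13 each in WT rep1, and had 6 and 2 in WT rep2.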

How the data were processed

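ATAC-seq libraries from posterior forelimb buds of 2 WT and 2 Shh-/- mouse embryos were grouped by genotype in their titles. The authors called peaks in each library separately, with Bowtie2 2.2.5 and MACS2 2.1.0 and the mm10 build named in the submitters' processing notes, and deposited for each peak a position, a summit and a score. The score was used only to rank peaks within a list. By the caller's format it is −log10 of a q-value multiplied by 10, a scale that the files do not state. Read filters and any shift to the Tn5 cut site are not given in the sources used here. Lists hold no counts, so the depth of each library is not in the files used here and the study's limma test on signal was not repeated.

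Peaks overlapping by at least 1 bp were merged across lists. Members were genes of GENCODE M21 (basic set), with gene body and 20 kb either side as window and 2 kb before to 1 kb after any start site as promoter. WT-specific and Shh-specific regions were called in both libraries of 1 genotype and none of the other. Genotype means were compared by two-sided exact permutation tests, whose smallest p is 0.333. Sequence came from GRCm38.p6, on which 0 peaks ended beyond a chromosome. The RefSeq promoter table matched too few members for GC content, so promoters were read from the genome. Overlap and merging steps were tested on simulated peaks. Python 3.11.15, pandas 2.3.3 and SciPy 1.17.1 were used.

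Genes named were the 7 limb mesenchyme and HH-responsive members, every member with a promoter peak in all 4 libraries or a genotype-specific region in its window, and members with no peak. Foxo6 and the genes sharing peaks or motif matches with these were added after their values were seen. The members and lists were chosen with earlier results of these data known. Alternatives were equal list size, a score of at least 50, summit overlap, other windows, leaving out each library and a replicate block. Single values of 2 genes are not reported here, and these genes remain in the counts.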

Additional observations from a re-analysis of the deposited data

How the results depend on the processing

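No result passed a test, and with 2 libraries per genotype none could. The lists give no reads per library, and list size limits every count. At equal list size the WT-specific and Shh-specific regions were 3 and 1, none of them among those found with all peaks. The mean difference of limb mesenchyme from other promoters was then −8.24 points. The WT minus Shh-/- difference at Foxf1 and Foxf2 was 0, where the only peaks within the limit were at the promoter of Mthfsd, a neighbour of Foxf1. With a score of at least 50 the counts of specific regions were 1 and 1, and windows with 5 kb flanks left 1 Shh-specific region. Leaving out each library in turn gave 6 to 109 WT-specific and 2 to 15 Shh-specific regions, −0.901 to 17.7 points for the limb mesenchyme difference, and WT minus Shh-/- differences of 1 to 21 members with a window peak, −0.5 to 20.5 members with a promoter peak, 8.5 to 120.5 peaks in the windows and 1 to 10 peaks at Foxf1 and Foxf2. The extremes came without WT replicate 2 (109 WT-specific regions, 16 without WT replicate 1, 29 without Shh-/- replicate 2) and without Shh-/- replicate 1 (15 Shh-specific regions), since fewer lists then define a region. The promoter difference of −0.5 was that without Shh-/- replicate 1, and −0.901 that without WT replicate 1. The 67 other values were counted as keeping their direction. Among them are the values of the replicate block, which could not change, and counts of specific regions, which have no direction. Not all kept their size: at equal list size the WT minus Shh-/- differences were 0.5 members with a window peak (11 with all peaks), 2.5 members with a promoter peak (10) and 1.5 peaks in the windows (64.5), and with a score of at least 50 they were 6.5, 5 and 15.5.

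The titles number the replicates alike. Deviations of same-numbered libraries correlated at −0.504 over the 44 members. Since rep1 was the longer list in WT and the shorter list in Shh-/-, this value cannot show whether the numbers pair the libraries. With the replicate block the differences were the same by construction (11, 10, 64.5 and 5.5), with a permutation p of 1.0 each, and with the numbers crossed, an alternative added after the data were seen, p was 0.5 each, the smallest that this paired test allows. The regions specific to a genotype and the limb mesenchyme difference do not use the numbers.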
